A study of Mus musculus with 12 samples.

Results

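The regions described here are the H3K36ac peaks on mouse chromosomes 2 and 8. They were taken as every interval on these chromosomes in 6 deposited peak lists (build mm10), whatever its score, and came to 16859 of 109597 peaks, 9629 on chromosome 2 and 7230 on chromosome 8. The chromosomes were picked because their peak density had been seen to be raised in 5 of the 6 lists, so density relative to the other autosomes is given as a description and supports nothing here. The lists came from liver tumors of LysM-Cre and TREM2-MKO mice, with 3 replicate libraries of each genotype. All libraries came from mice given anti-PD-1 treatment, which releases a brake on T cells, and no untreated group was analysed here. LysM-Cre is a Cre driver active in myeloid cells and served as the control genotype. TREM2-MKO denotes a knockout of Trem2, a lipid-sensing receptor of macrophages, in myeloid cells. The labels read here do not state the age of the mice. The comparison asks whether the distribution of H3K36ac in treated tumors goes with loss of Trem2 in myeloid cells.

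H3K36ac is acetylation of lysine 36 of histone H3, written by acetyltransferases such as GCN5 and found mainly at promoters of active genes. The same lysine can instead be methylated, and the methylated form lies over the bodies of transcribed genes. Whole tumors were profiled, and hepatocyte-lineage, stromal and immune cells all contribute to such chromatin, so fewer cells of a type and less mark per cell cannot be told apart.

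The sequences of 6 promoters under a peak in 2 libraries are shown first, because they show where called positions met annotated starts on these chromosomes. They were chosen after their values were seen, to include both chromosomes and both genotypes. Each run is RefSeq sequence (GRCm38.p6, the assembly that mm10 names) from 250 bases before to 50 bases after the annotated start, 5′ to 3′ on the gene's strand. Capitals mark the bases that lay inside the peaks of both libraries.
Prokr2: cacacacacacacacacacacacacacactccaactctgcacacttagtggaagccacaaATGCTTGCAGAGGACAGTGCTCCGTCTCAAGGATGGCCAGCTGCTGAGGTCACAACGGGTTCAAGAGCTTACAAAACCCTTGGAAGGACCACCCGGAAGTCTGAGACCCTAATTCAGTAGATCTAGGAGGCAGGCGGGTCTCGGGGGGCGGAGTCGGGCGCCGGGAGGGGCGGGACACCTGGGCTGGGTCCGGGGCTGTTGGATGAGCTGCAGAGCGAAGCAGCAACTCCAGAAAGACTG
Ap5s1: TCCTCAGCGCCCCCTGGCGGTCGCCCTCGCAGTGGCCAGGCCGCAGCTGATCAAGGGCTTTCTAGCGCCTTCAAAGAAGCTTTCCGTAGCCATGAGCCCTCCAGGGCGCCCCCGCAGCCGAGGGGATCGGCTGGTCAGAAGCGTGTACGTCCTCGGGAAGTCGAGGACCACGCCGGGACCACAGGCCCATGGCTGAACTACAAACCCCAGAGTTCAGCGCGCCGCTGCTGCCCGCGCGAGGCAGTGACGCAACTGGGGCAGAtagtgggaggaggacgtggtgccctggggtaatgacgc
Mfap1a: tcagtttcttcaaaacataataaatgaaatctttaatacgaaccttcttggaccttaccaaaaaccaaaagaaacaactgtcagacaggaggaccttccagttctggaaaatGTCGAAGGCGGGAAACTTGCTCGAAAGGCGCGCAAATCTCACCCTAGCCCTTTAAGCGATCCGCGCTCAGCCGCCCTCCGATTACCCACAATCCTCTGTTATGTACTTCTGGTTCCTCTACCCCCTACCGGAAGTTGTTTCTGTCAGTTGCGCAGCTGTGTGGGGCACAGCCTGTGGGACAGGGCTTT
Celf2: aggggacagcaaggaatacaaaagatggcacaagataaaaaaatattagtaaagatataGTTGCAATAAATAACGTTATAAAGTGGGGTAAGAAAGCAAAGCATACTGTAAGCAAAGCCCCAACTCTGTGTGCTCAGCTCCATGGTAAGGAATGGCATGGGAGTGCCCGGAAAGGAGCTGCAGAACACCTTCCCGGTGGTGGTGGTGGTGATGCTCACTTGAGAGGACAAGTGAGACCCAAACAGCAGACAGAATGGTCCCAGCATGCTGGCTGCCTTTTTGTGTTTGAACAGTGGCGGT
4921524J17Rik: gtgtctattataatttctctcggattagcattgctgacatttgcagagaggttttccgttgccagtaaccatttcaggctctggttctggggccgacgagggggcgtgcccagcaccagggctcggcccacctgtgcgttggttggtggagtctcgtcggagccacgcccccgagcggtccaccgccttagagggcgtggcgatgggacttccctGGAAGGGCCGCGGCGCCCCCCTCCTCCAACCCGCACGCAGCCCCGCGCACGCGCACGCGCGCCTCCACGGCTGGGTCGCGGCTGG
Hhip: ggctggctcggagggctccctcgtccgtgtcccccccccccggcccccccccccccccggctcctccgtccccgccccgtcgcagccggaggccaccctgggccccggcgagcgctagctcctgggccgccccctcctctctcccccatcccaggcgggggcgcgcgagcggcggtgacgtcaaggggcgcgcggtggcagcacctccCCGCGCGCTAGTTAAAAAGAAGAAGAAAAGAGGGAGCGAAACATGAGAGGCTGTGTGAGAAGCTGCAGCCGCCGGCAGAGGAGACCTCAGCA

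The first of these lies at chr2:132385398-132385697 on the minus strand, before Prokr2, which encodes a prokineticin receptor. Its peaks in LysM-Cre replicates 2 and 3 had folds over local background of 3.95 and 3.58, with summits 16 and 61 bases after the start, and shared 240 of the 300 bases. The promoter of Ap5s1, a subunit of an adaptor complex of late endosomes, lies at chr2:131210110-131210409 on the plus strand. Peaks of LysM-Cre replicates 1 and 2 shared 262 of its bases, with summits at -149 and -98 from the start. In both promoters, then, summits of separate libraries lay close together near the start.

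The Mfap1a promoter (chr2:121506607-121506906, minus strand) belongs to a spliceosome-associated protein and overlaps the promoter of Wdr76, which points the other way. It was the shown promoter with 1 library of each genotype: LysM-Cre replicate 3, fold 3.59, and TREM2-MKO replicate 1, fold 3.29, with summits 71 and 65 bases after the Mfap1a start. Celf2 encodes an RNA-binding regulator of splicing. Its promoter shown here (chr2:7396149-7396448, minus strand) was under peaks of TREM2-MKO replicates 2 and 3, with folds of 3.28 and 3.49 and summits at -57 and 97. Within 1 kb of an annotated Celf2 start, all 3 TREM2-MKO libraries and no LysM-Cre library had a peak.

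On chromosome 8, the promoter of 4921524J17Rik (chr8:85432792-85433091, minus strand) was under peaks of TREM2-MKO replicates 1 and 3, with folds of 2.70 and 2.66 and summits 199 and 215 bases after the start. Hhip, an inhibitor that binds hedgehog ligands, had its promoter (chr8:80057959-80058258, minus strand) under the edges of peaks of LysM-Cre replicates 2 and 3, with folds of 3.21 and 2.52. Both promoters hold 30 CpG dinucleotides, against a median of 13 over all 21263 promoter entries. The Celf2 promoter holds 4.

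Across chromosomes 2 and 8, 24 of 2738 promoter entries lay under a peak in 2 libraries and none in 3 or more. In wider windows, 1 kb either side of a start, 1.56% of genes there had a peak in 2 or more libraries, against 0.959% of all genes. Density was not taken into account. The 24 are not all separate, since Celf2 and Tmem141 have 2 entries each. Mfap1a and Wdr76, Zfp661 and Mrps5, and Dzank1 and Polr3f lay in pairs under the same peaks. Motif letters were searched on both strands, and none of the 3 motifs contains another. The letters CCAAT were found in 20.8% of the 24 and in 38.2% of all entries, GGGCGG in 54.2% and 46.2%, and TATAAA in 4.17% and 12.6%. These shares describe the windows and no difference between them was tested.

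The libraries differed in the number of peaks. Chromosome 2 held 1624, 2585 and 1907 peaks in the LysM-Cre libraries (replicates 1 to 3) and 2585, 641 and 287 in those of TREM2-MKO. Chromosome 8 held 1157, 1918 and 1462, and 1968, 501 and 224. TREM2-MKO replicates 2 and 3 were the sparse lists on both chromosomes, as over the whole genome, where lists ran from 4638 to 29970 peaks. Densities below are therefore relative to the same library, whereas counts of genes and regions are counts of calls and move with the size of the lists. The labels call the libraries replicates, so p-values measure only the spread between these samples.

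Relative density was peaks per Mb divided by that of the 17 other autosomes. On chromosome 2 it was 1.24, 1.20 and 1.36 in LysM-Cre and 1.20, 1.32 and 0.816 in TREM2-MKO. On chromosome 8 it was 1.25, 1.26 and 1.48 in LysM-Cre and 1.30, 1.46 and 0.903 in TREM2-MKO. TREM2-MKO replicate 3 was the single library below 1 on either chromosome, and the groups overlapped.

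Averaged over the 6 libraries, chromosomes 3, 15 and 19 were denser than chromosome 8 at 1.28 and chromosome 2 at 1.19. Chromosome 2 had 1.26 ± 0.0831 in LysM-Cre and 1.11 ± 0.264 in TREM2-MKO (SD, n = 3 each). Chromosome 8 had 1.33 ± 0.128 and 1.22 ± 0.288. No test of the genotypes is given on these densities, since the chromosomes were chosen by them. Without TREM2-MKO replicate 3 the means were 1.26 and 1.26 on chromosome 2, and 1.33 and 1.38 on chromosome 8, where the sign turned.

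**Figure D1:**
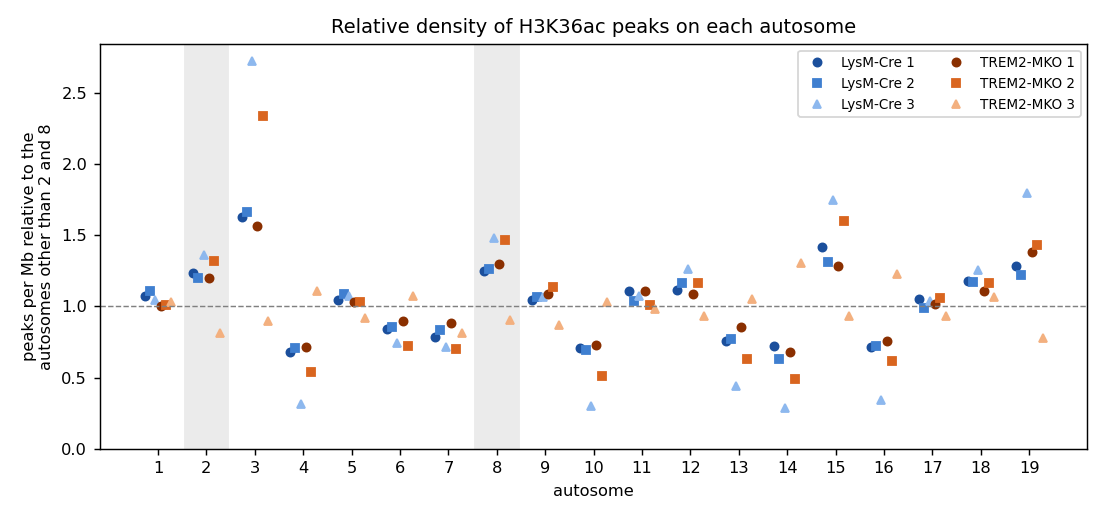
Peaks per Mb on each autosome (x axis) relative to the autosomes other than 2 and 8 (y axis), with 1 point per library and chromosomes 2 and 8 shaded. On both shaded chromosomes 5 libraries sit between 1.20 and 1.48, and TREM2-MKO replicate 3 sits at 0.816 and 0.903.

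Along each chromosome the density was followed in bins of 5 Mb, relative to the density of all autosomes in the library, over 37 bins on chromosome 2 and 26 on chromosome 8. On chromosome 2, bins above 1 were spread along most of its length in all libraries but TREM2-MKO replicate 3. In LysM-Cre 27, 33 and 33 of the 37 bins exceeded 1, and in TREM2-MKO 33, 26 and 12 did. The median bin held 45, 70, 54, 71, 18 and 7 peaks in the 6 libraries in that order, so single bins of TREM2-MKO replicates 2 and 3 rest on few peaks.

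The highest mean on chromosome 2 was 1.58 at 95 to 100 Mb, a bin with 1 gene start, that of Lrrc4c, which encodes a netrin-G ligand of neuronal synapses. The libraries stood at 1.82, 1.74, 1.53, 1.03, 1.62 and 1.76, so every library was above 1 there, including the one that was low over the whole chromosome. Next came 105 to 110 Mb with 1.57, where the longest gene is Dcdc5, and 135 to 140 Mb with 1.43, where it is Plcb1, a phospholipase of G-protein signalling. The lowest bins were 175 to 180 Mb with 0.42 and 30 to 35 Mb with 0.88. The bin at 30 to 35 Mb holds 96 gene starts, and Ralgps1 is its longest gene.

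The low bin near the distal end was nearly empty over its first 3 Mb. Between 175 and 178 Mb LysM-Cre replicate 1 had 2 peaks and LysM-Cre replicate 2 had 1, and the other 4 libraries had 0. The stretch holds 30 gene starts. How well reads can be placed there was not available, so few peaks are not shown to mean little mark. The longest stretch without a peak in any library ran from 175174259 to 177123527, 1949 kb, and was the third longest on the autosomes. It overlaps 20 annotated genes, of which 14 have predicted names (Gm) and 5 have zinc-finger names (Zfp). What the Gm genes encode was not looked at. Chromosome 2 had 3 bins of 1 Mb with at most 2 peaks over all 6 libraries, 1.69% of its bins, against 0.716% of the 2373 such bins on all autosomes. From 178 Mb to the last peak the relative density was back at 0.964 ± 0.375 (SD, n = 6).

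The largest step on chromosome 2 rested on these distal bins. The split of the mean profile into 2 levels lay at 170 Mb, from 1.17 to 0.833, with 34 bins on the lower side and 3 on the higher. Its log2 size was -0.63, -0.50 and -0.20 in LysM-Cre and -0.17, -0.77 and -0.99 in TREM2-MKO. All 6 libraries fell there, and the genotypes overlapped (exact two-sided permutation p = 0.5, n = 3 each, where the smallest possible is 0.1). The split was placed on the mean of these 6 libraries, without regard to genotype, so their shared fall is a description. Split one at a time, LysM-Cre replicates 1 and 2 placed their largest step at 170 Mb and TREM2-MKO replicate 3 placed it at 125 Mb, all 3 as falls. LysM-Cre replicate 3 rose by 0.29 at 90 Mb, and TREM2-MKO replicates 1 and 2 rose by 0.15 and 0.38 at 70 Mb. With the bins below 175 Mb alone, a choice made after seeing the data, the largest step was a rise of 0.23 on the log2 scale at 80 Mb. It was also a rise without TREM2-MKO replicate 3 (0.24 at 85 Mb) and with equal list sizes (0.29 at 40 Mb).

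Below 80 Mb the relative densities were 1.07, 1.07 and 1.16 in LysM-Cre and 1.11, 1.10 and 0.950 in TREM2-MKO. Between 80 and 170 Mb they were 1.36, 1.29 and 1.43, and 1.23, 1.47 and 0.784. The denser middle stretch was thus seen in 5 libraries, and TREM2-MKO replicate 3 went the other way. No test was made, since the position was chosen from the same bins.

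**Figure D2:**
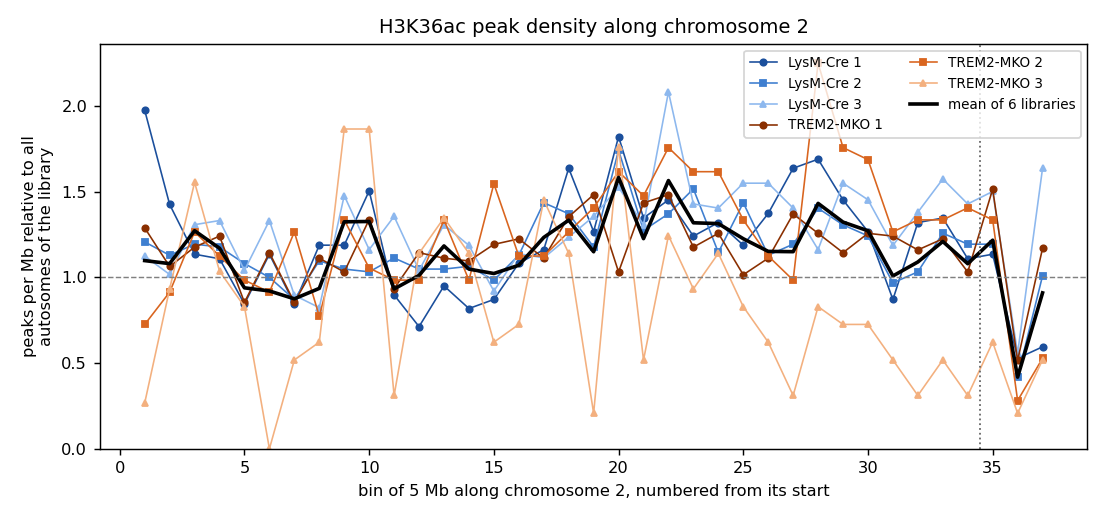
Peaks per Mb in each 5 Mb bin of chromosome 2, numbered from its start (x axis), relative to all autosomes of the library (y axis), with 1 line per library and the mean in black; the dotted line is the split of the mean profile. The mean drops to 0.42 in bin 36, where every library lies between 0.207 and 0.557.

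Chromosome 8 carried its excess in its first part. The mean profile split at 65 Mb, with 13 bins on each side. Relative density below it was 1.40, 1.43 and 1.71 in LysM-Cre and 1.42, 1.64 and 1.03 in TREM2-MKO. Above it the values were 1.03, 1.03 and 1.11, and 1.10, 1.17 and 0.815. Every library was denser on the lower side, and in 5 of them the distal side lay between 1.03 and 1.17, near the autosomal mean. The split was placed on the mean of these libraries, without regard to genotype, so the shared direction is a description. By size, the step of the mean profile (log2 -0.46) ranked 4 among the 19 autosomes. Larger falls lay on chromosomes 15 (-0.68 at 50 Mb), 9 (-0.66 at 20 Mb) and 2 (-0.50 at 170 Mb).

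The step had a log2 size of -0.43, -0.48 and -0.63 in LysM-Cre and -0.37, -0.49 and -0.34 in TREM2-MKO. Its mean was -0.51 ± 0.10 and -0.40 ± 0.08 (SD, n = 3 each), with overlapping genotypes and an exact two-sided permutation p of 0.3. The step was thus present in TREM2-MKO replicate 3 as well, whose density over the chromosome was low. Split one at a time, the libraries placed their largest step at 55, 60 and 15 Mb in LysM-Cre and at 20, 60 and 15 Mb in TREM2-MKO. The step was a fall in 5 of them, and in TREM2-MKO replicate 3 it was a rise, from 0.480 below 15 Mb to 0.967 above.

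The densest bin of either chromosome lay at 5 to 10 Mb on chromosome 8, with a mean of 2.04. The libraries stood at 2.01, 2.15 and 2.64 in LysM-Cre and 2.13, 2.67 and 0.622 in TREM2-MKO. Its 6 gene starts include that of Fam155a, 567 kb long, and none lies between 6 and 8 Mb. The neighbouring bins followed: 0 to 5 Mb, of which 1.89 Mb was covered by the lists and where Insr, the insulin receptor gene, is the longest, had a mean of 1.67. At 10 to 15 Mb, where Dlgap2, a synaptic scaffold gene, is the longest, the mean was 1.61.

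TREM2-MKO replicate 3 did not share this proximal excess. Between 5 and 15 Mb it had 0.467, from 9 peaks, and the other libraries had 1.72, 1.85, 2.75, 2.11 and 2.04. From 15 to 20 Mb it was at 1.04, and from 22 to 65 Mb at 1.21, where the others lay between 1.25 and 1.56. The libraries therefore differed most over the first 15 Mb.

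A narrow trough lay at 20 to 22 Mb, within the dense proximal side. Relative density there was 0.264, 0.363 and 0.485 in LysM-Cre and 0.121, 0.352 and 0.519 in TREM2-MKO, below the next 1 Mb on the distal side in 5 of 6 libraries. The trough holds 49 gene starts. Of the 42 in its second Mb, 29 are alpha-defensin genes (Defa) and 9 beta-defensin genes (Defb), which encode antimicrobial peptides. How well reads can be placed in the trough was not available either. The lowest 5 Mb bins of chromosome 8 were elsewhere: 120 to 125 Mb with a mean of 0.90, whose longest gene is Gse1, and 105 to 110 Mb with 0.92, which holds Zfhx3.

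**Figure D3:**
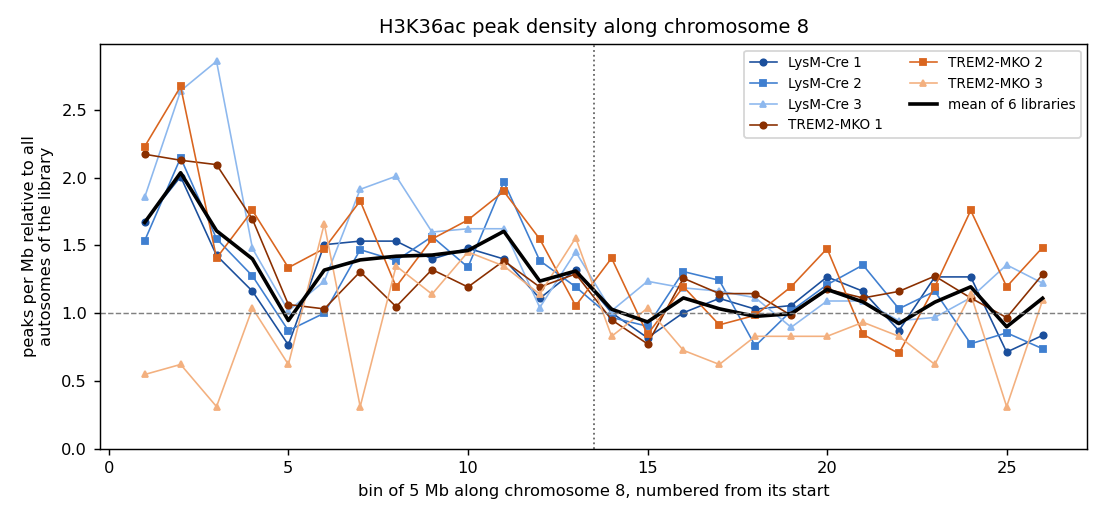
Peaks per Mb in each 5 Mb bin of chromosome 8, numbered from its start (x axis), relative to all autosomes of the library (y axis), with 1 line per library and the mean in black; the dotted line is the split of the mean profile. In bins 1 to 3 TREM2-MKO replicate 3 lies between 0.311 and 0.622 and the others lie between 1.41 and 2.86.

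In 2 of the 63 bins all 3 LysM-Cre libraries stood above all 3 TREM2-MKO libraries, and in 0 bins the reverse held. Over all autosomes 2.83% and 5.66% of the 495 bins did so. The bins were chromosome 2 at 125 to 130 Mb, with 1.37, 1.13 and 1.55 against 1.11, 1.13 and 0.622, and chromosome 8 at 35 to 40 Mb, with 1.53, 1.39 and 2.01 against 1.05, 1.20 and 1.35. At the former, LysM-Cre replicate 2 and TREM2-MKO replicate 2 rounded to the same value. The count for LysM-Cre was close to its background share and that for TREM2-MKO was below its own, and neither gap was tested.

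Profiles of separate libraries were alike to a modest degree. Spearman's rho over the bins of chromosome 2 had a median of 0.31 for pairs of 1 genotype (6 pairs) and 0.30 between genotypes (9 pairs), and of chromosome 8 0.59 and 0.50. On chromosome 8 denser bins held fewer genes: rho between gene starts and mean density was -0.63 over 26 bins, and between -0.40 and -0.54 in each library. On chromosome 2 it was -0.36 over 37 bins for the mean, with -0.56 in TREM2-MKO replicate 3 and between -0.16 and 0.07 in the other 5 libraries. All libraries share the same bins and genome, and these values are descriptions.

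Peaks on the 2 chromosomes were as strong as elsewhere. The median fold over local background was 3.22, 3.02, 3.25, 3.05, 2.63 and 2.68 on chromosome 2 (the 3 LysM-Cre libraries first), and 3.22, 3.13, 3.25, 3.05, 2.63 and 2.65 on chromosome 8. On the other autosomes it was 3.22, 3.01, 3.25, 3.05, 2.63 and 2.68. The share of peaks with a q-value of 0.01 or less lay between 8.36% and 17.7% on chromosome 2, between 8.04% and 18.9% on chromosome 8 and between 9.60% and 17.1% elsewhere. Most peaks were thus weak calls of 11 fragments at the summit in 4 libraries, 20 or 21 in TREM2-MKO replicate 2 and 23 in replicate 3.

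The local background under the peaks did differ. The authors' fold and p-value of a peak together give the background it was called against, and each library has a lowest value that most peaks share. The share of peaks above that value on chromosome 8 was 41.0%, 36.6% and 44.3% in LysM-Cre and 44.2%, 41.3% and 37.5% in TREM2-MKO. On the other autosomes it was 33.7%, 31.3% and 41.5%, and 39.8%, 37.4% and 34.7%, so chromosome 8 was higher in 6 of 6 libraries. It was not the highest of the 19 autosomes in any library, ranking 3, 3 and 5 in LysM-Cre and 2, 5 and 5 in TREM2-MKO.

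Chromosome 2 was higher in 4 of 6, with 36.1%, 33.9% and 42.5% in LysM-Cre and 41.3%, 37.3% and 33.8% in TREM2-MKO. By this share it ranked 8, 6 and 6 of the 19 autosomes in LysM-Cre and 8, 11 and 13 in TREM2-MKO. Across the 19 autosomes, density and this share rose together in LysM-Cre and TREM2-MKO replicate 1 (rho 0.85, 0.84, 0.89 and 0.73). In TREM2-MKO replicates 2 and 3 rho was 0.05 and -0.53. A raised control background thus moved with peak density in 4 libraries, and its part in the density of chromosomes 2 and 8 was not tested. The protocol also included whole-genome amplification of the precipitated DNA.

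**Figure D4:**
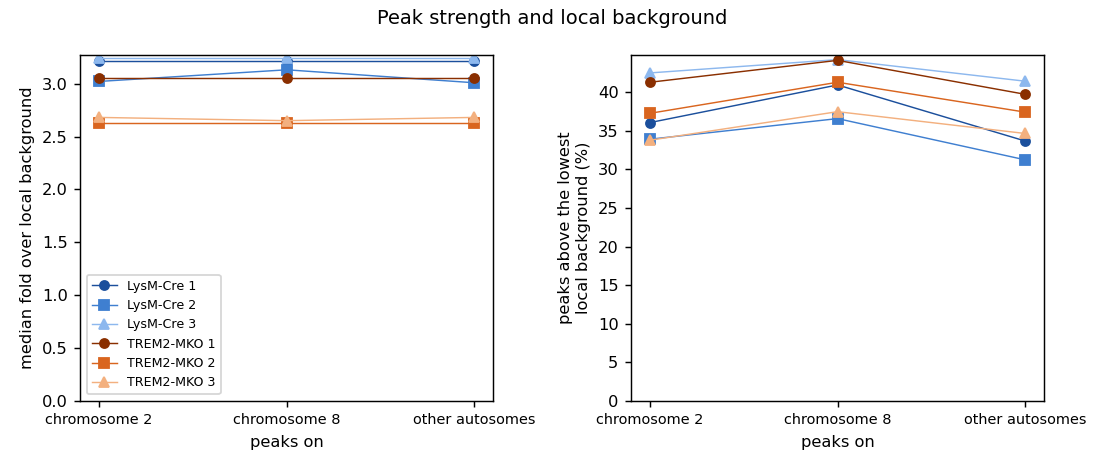
Median fold over local background (left) and share of peaks above the library's lowest local background (right) for peaks on chromosome 2, chromosome 8 and the other autosomes, with 1 line per library. The folds run level, between 2.63 and 3.25, and the share is highest on chromosome 8 in each library.

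Peaks were then placed against genes. Gene-end windows, 1 kb either side of both annotated ends, contain the start and covered 3.55% of chromosome 2 and 2.96% of chromosome 8. Enrichment is the share of peaks in the windows divided by that coverage. On chromosome 2 it was 1.22, 1.04 and 1.49 in LysM-Cre and 0.960, 1.32 and 1.38 in TREM2-MKO, with a mean of 1.23 ± 0.205 against 1.20 ± 0.226 on the other autosomes (SD, n = 6; higher in 3 of 6, exact two-sided sign-flip permutation p = 0.71875, adjusted 0.71875). On chromosome 8 it was 1.17, 0.810 and 1.43, and 0.841, 1.08 and 1.21, with a mean of 1.09 ± 0.235 (higher in 2 of 6, exact permutation p = 0.34375, adjusted 0.458, n = 6). Neither chromosome differed from the rest beyond the spread between libraries.

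Over gene bodies the enrichment on chromosome 2 was 0.972 ± 0.0521 against 0.989 ± 0.0605 on the other autosomes (SD, n = 6), higher in 2 of 6 libraries (exact permutation p = 0.1875, adjusted 0.375). On chromosome 8 the libraries gave 1.00, 0.919 and 1.00 in LysM-Cre and 0.917, 0.907 and 0.866 in TREM2-MKO. Each was below its own value on the other autosomes, by 0.08 ± 0.08 on the log2 scale on average (SD, n = 6; exact two-sided permutation p = 0.03125, the smallest possible). After Benjamini-Hochberg adjustment over the 4 tests the value was 0.125, which does not pass 0.05. The bodies of genes, where the methylated form of the lysine is found, thus held no excess of peaks on either chromosome.

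Long genes held the most peaks. On chromosome 2 these were Macrod2, an ADP-ribosyl hydrolase gene of 1998 kb, with 26, 36 and 23 peaks in LysM-Cre and 24, 12 and 4 in TREM2-MKO, then Lrp1b, a lipoprotein-receptor family gene, with 17, 25 and 32, and 22, 10 and 6, and Lrrc4c. On chromosome 8 these were Csmd1, with 18, 27 and 15, and 31, 4 and 3, Sgcz, a sarcoglycan gene, and Nrg1, a ligand of ERBB receptors. Relative to the length of the gene and the density of its chromosome, Macrod2 held 0.832 to 1.68 times the peaks of the chromosome as a whole, Lrp1b 0.740 to 1.82 and Lrrc4c 0.714 to 2.85 times. Csmd1 held 0.613 to 1.21, Sgcz 0.440 to 2.46 and Nrg1 0.710 to 1.91 times those of chromosome 8. For each of these genes the libraries lay on both sides of 1.

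Of the 2825 protein-coding genes on chromosomes 2 and 8, 580 had a gene-end peak in at least 1 library, 20.5% against 16.6% of the 21887 genes of the table. In 2 or more libraries 87 genes did, 3.08% against a background of 2.17%. In 3 or more 7 did, where the background was 0.201%. A denser chromosome gives more of each count, so these shares are not a result about the genes. No gene had a gene-end peak in more than 3 libraries.

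Of the 87 genes, 47 had their peaks in LysM-Cre libraries alone, 6 in TREM2-MKO alone and 34 in both, or 54.0%, 6.90% and 39.1%. Of the 475 such genes on all chromosomes 44.2% were in LysM-Cre alone, 11.4% in TREM2-MKO alone and 44.4% in both, and the difference was not tested. For 50 of them the same position was called in 2 or more libraries, and for the others the peaks lay at separate places within the windows. All 3 LysM-Cre and no TREM2-MKO library marked 3 genes (Ap5s1, Pnpla7 and Nsmf), where the background was 0.0548%. The reverse held for 0 genes, against a background of 0.0183%. In windows 1 kb either side of a start, the reverse held for 1 gene there, Celf2, and for 4 of all 21887 genes. The number of genes marked stands beside this split: on chromosome 2 it was 75, 108 and 110 in LysM-Cre and 94, 31 and 14 in TREM2-MKO. The list of TREM2-MKO replicate 1 was larger than those of LysM-Cre replicates 1 and 3, and those of TREM2-MKO replicates 2 and 3 were the smallest. The part of list size in the split was not tested.

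Pnpla7, a lysophospholipase gene expressed in liver, ends just before Nsmf, a gene of signalling from synapse to nucleus, and both carried the same 3 peaks. Their folds were 4.05, 6.96 and 3.00 in LysM-Cre replicates 1 to 3, from 14, 27 and 10 fragments at the summit. The summits lay 123, 148 and 62 bases into Nsmf from its lower end (chromosome 2, 25054361 to 25062881); all 3 belong to 1 region. No TREM2-MKO library had a peak there.

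Ap5s1 (chromosome 2, 131210360 to 131213514) had folds of 3.29, 4.88 and 3.94 in LysM-Cre. The summits lay at -149 and -98 from the start in replicates 1 and 2 and at 901 in replicate 3, so 1 position was shared by 2 libraries. Agbl2, a tubulin carboxypeptidase gene, was marked near its start in LysM-Cre replicates 2 and 3, with folds of 3.24 and 3.54, and 598 bases past its other end in TREM2-MKO replicate 1, with a fold of 3.33. Ocstamp, which encodes a protein of osteoclast fusion, had folds of 2.92 in LysM-Cre replicate 2 and of 2.67 and 3.49 in TREM2-MKO replicates 1 and 2, which alone shared a position.

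On chromosome 8, Usp10, a deubiquitinase gene (119910360 to 119957560), carried 1 shared region near its 3′ end in LysM-Cre replicates 1 and 3 and TREM2-MKO replicate 2. The folds were 2.67, 4.34 and 1.98, and the summits lay at -1026, -629 and -744 from that end. Pnpla7, Nsmf and Usp10 thus had a position called in 3 libraries, and Ap5s1, Agbl2 and Ocstamp combined separate positions.

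**Figure D5:**
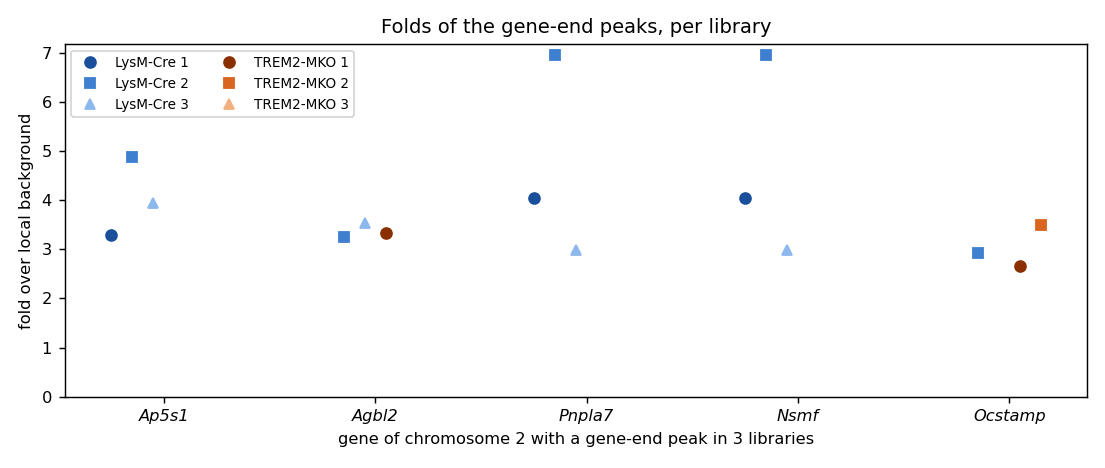
Fold over local background (y axis) of the gene-end peak in each library for the 5 genes of chromosome 2 marked in 3 libraries (x axis), 1 point per library with a peak. Pnpla7 and Nsmf share the same peaks, the highest at 6.96 in LysM-Cre replicate 2, and TREM2-MKO replicate 3 has no point.

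Positions called in several libraries were then counted. Merging overlapping peaks gave 16070 regions on the 2 chromosomes, of which 736 were called in 2 or more libraries, 4.58% against 4.43% over all chromosomes. In 3 or more 49 were, 0.305% against 0.316%, and 3 were in 4 libraries. These shares are near the background, so that the higher density came without a higher share of recurrent positions. Of the 25 such regions on chromosome 2, 8 overlapped a gene, and of the 24 on chromosome 8, 6 did. Of all peaks, between 39.7% and 46.9% lay within genes on chromosome 2 and between 35.3% and 40.8% on chromosome 8, and no difference from these shares was tested.

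The regions in 4 libraries all lay far from genes. The first (chr8:28077506-28078068, 495 kb from Poteg) had folds of 2.70 and 4.43 in LysM-Cre replicates 2 and 3. Its folds were 2.63 and 2.91 in replicates 1 and 3 of TREM2-MKO. Another (chr2:8932714-8934012) lay 923 kb from Gata3, which encodes a transcription factor of T cells, with folds of 4.30, 2.70 and 3.75 in LysM-Cre and 2.35 in TREM2-MKO replicate 3. The last (chr8:44214177-44214921, 511 kb from Adam34l) had a fold of 2.95 in LysM-Cre replicate 1 and of 2.77, 2.23 and 3.37 in TREM2-MKO. None of these separates the genotypes.

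All 3 LysM-Cre and no TREM2-MKO library called 10 regions, where the background was 0.0497% of regions, and the reverse held for 3, with a background of 0.022%. The LysM-Cre region with the highest lowest fold (chr8:30604367-30605118, 484 kb from Dusp26, a phosphatase gene) had 4.68, 5.40 and 3.87. Next was chr2:88440563-88441182, 4.84 kb from the olfactory receptor gene Olfr1182, with 3.80, 3.76 and 4.72. Others lay 467 kb from Jag1, a Notch ligand gene, and within Myo16. Nearest genes are named for position alone.

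The 3 TREM2-MKO regions were deeper piles than usual in 2 cases. Within Etl4 (chr2:19992073-19992556) the summits held 50, 95 and 89 fragments at folds of only 3.11, 2.35 and 2.06. At chr2:48466430-48466870, 347 kb from Acvr2a, an activin receptor gene, they held 27, 54 and 68 at folds of 4.10, 2.62 and 3.25. Since fold is the ratio of pileup to local background, the control background at these summits was raised too. Within Nrg1 (chr8:31830790-31831568) the third region held 9, 20 and 21 fragments, close to the usual peak.

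Recurrence followed density along chromosome 8. Below 65 Mb 5.69% of regions were called in 2 or more libraries and above it 3.61%, and 19 of the 24 regions in 3 or more libraries lay below. On chromosome 2 the shares were 4.49% below 170 Mb and 3.31% above. More peaks per Mb raise the number of overlaps, and that part was not separated.

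Gene lists of cell types and pathways covered 266 genes on these chromosomes, chosen with earlier results of these data known. Of these, 54 had a gene-end peak in any library, 20.3% against 20.5% of all genes there. By list the share ran from 0% (7 B cell and 10 HoxD genes) to 31.8% of 44 hepatocyte and 36.8% of 19 T and NK cell genes. No list was tested, so none was read as marked or unmarked. Over gene bodies 63.5% of the list genes had a peak in any library, against 53.9% of all genes there. Gene length was not taken into account. Only 4 list genes were marked in 2 libraries, each in 1 library of each genotype: Stk4, a Hippo pathway kinase gene (3.14 and 2.21), Irs2, an insulin receptor substrate gene (3.80 and 3.78), Pdlim3, an actin-associated gene (4.32 and 2.33), and Csnk2a1, a catalytic subunit of casein kinase 2 (4.72 and 2.95).

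Of 44 hepatocyte genes, 14 were marked, each in 1 library, 9 of them in a LysM-Cre and 5 in a TREM2-MKO library. They included Hpgd, which degrades prostaglandins (fold 4.49, LysM-Cre replicate 3), Proz, a plasma protein of coagulation (4.13, LysM-Cre replicate 3), and Agt, angiotensinogen (4.11, TREM2-MKO replicate 1). Of 18 carboxylesterase genes, a drug- and lipid-hydrolysing cluster on chromosome 8, 4 were marked. No hepatocyte gene on these chromosomes had a gene-end peak in 2 libraries, so these lists give no check of the labelled tissue.

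Of 25 macrophage and myeloid genes 6 were marked, 3 in a LysM-Cre and 3 in a TREM2-MKO library. They included Mmp9, a matrix protease (3.89, TREM2-MKO replicate 1), Cd209a, a C-type lectin (2.81, LysM-Cre replicate 1), Card9, a signalling adaptor of fungal recognition (2.74, LysM-Cre replicate 3), and Cst3, cystatin C (2.71, TREM2-MKO replicate 2). Of 19 T and NK cell genes 7 were, including Cd44 (3.37, LysM-Cre replicate 3) and Il2ra, a subunit of the interleukin-2 receptor (3.33, TREM2-MKO replicate 1). Of 22 chemokine, interferon and innate sensing genes 3 were marked. None of the 7 B cell genes and none of the 10 HoxD genes had a gene-end peak.

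Of 25 genes of histone acetylation, methylation and chromatin 5 were marked. Hat1, a histone acetyltransferase gene, had a fold of 4.24 in LysM-Cre replicate 1. Kat6a, another acetyltransferase gene, and Brd7, a bromodomain gene, each had 2.93 in the same library. L3mbtl1, a chromatin-binding gene, had 2.98 in TREM2-MKO replicate 1, and Hmgb2, a high-mobility-group gene, had 2.91 in LysM-Cre replicate 3. Of 17 genes expressed in most cells, where active promoters would be looked for, 3 had a gene-end peak, 17.6% against 20.5% of all genes there. Of 15 ribosome and proteasome genes 1 had such a peak, or 6.67%. Neither gap was tested.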

How the data were processed

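H3K36ac was profiled by ChIP-seq in 6 liver tumor libraries, 3 per genotype. Inputs were not analysed here. The submitters' processing notes name MACS2, deepTools, Picard, SAMtools, Bowtie2 and Trimmomatic with build mm10, per the labels; their versions are not given in the sources used here. Per the deposited lists' names, duplicates were removed and the settings were 1 library against a pooled control, a p-value limit of 0.01 and at most 500000 peaks. Each list deposited by the authors gives a summit offset, a score, a ratio (fold over local background) and, on the −log10 scale, the p-value and q-value. The protocol in the labels includes whole-genome amplification, which can copy fragments unevenly.

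Peaks were placed by summit in bins of 5 Mb over each chromosome's span from first to last peak, and counts per Mb were divided by the library's density. A step was the split into 2 levels, at least 3 bins each, with the best Poisson likelihood. It was tried on simulated profiles with known steps at least 6 bins from either end. Those profiles do not cover splits nearer an end, as at 170 Mb on chromosome 2 and at 15 and 20 Mb on chromosome 8. They do not cover the sparse lists either. Fragments and local background per peak were recovered from fold and p, taking fold as (pileup + 1)/(background + 1); 100% of peaks were solved. Read totals were not used, so the median summit of 11 to 23 fragments sets the precision. Positions of 21887 protein-coding genes came from RefSeq (GRCm38.p6), with a strand for 2269 of 2825 on these chromosomes; exons were not used. Overlapping peaks were merged from 1 bp. Steps of LysM-Cre and TREM2-MKO were compared by exact two-sided permutation over 20 assignments, and chromosomes by exact sign flips over the 6 libraries (64 assignments), adjusted by Benjamini-Hochberg. Python 3.11.15, numpy 2.4.6, pandas 2.3.3 and scipy 1.17.1 were used.

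Members, lists and named genes were chosen with earlier results of these data known. Named genes were those with a gene-end peak in 3 libraries, those at regions in 3 or more, up to 4 per list (the chromatin list, with 5 marked, is named whole, after its values were seen), those with most peaks, and the longest in the extreme bins; the 6 promoters, the 1 Mb bins and the strongest piles were picked after their values were seen. The result for 1 gene is not reported here. Alternatives were stricter p, equal list sizes, other references, bins, merging and windows, and leaving out each library.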

Additional observations from a re-analysis of the deposited data

Results flagged for a closer look

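Over the 6 libraries, the gap between an extreme value and its neighbour was compared with the whole range for 16 measures of chromosomes 2 and 8, and it passed Dixon's 95% limit in 2. About 1 in 20 such groups would pass by chance. The relative density of chromosome 2 in TREM2-MKO replicate 3, 0.816, stood apart from the other libraries, with 0.707 of the range in the gap. The chromosomes were chosen by this density, with that library as the exception, so its standing apart is a description. The gene-body enrichment of peaks on chromosome 2 in the same library, 0.874, stood apart with 0.636 of the range. This library also had the fewest peaks, 287 on chromosome 2, and on the other autosomes its gene-body enrichment was 0.871.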

How the results depend on the processing

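Of 164 recomputed values of 16 results, 102 were classed as the same. For differences and enrichments this meant the same sign and the same side of 0.05. For steps it meant a shift below the SD between libraries, and for counts a change within a set factor. With 3 libraries per genotype the density differences cannot pass 0.05, so only their sign could change. The same held for the enrichments with 1 library left out, where sign flips over the remaining libraries cannot reach 0.05. The 102 include the density differences with same-numbered libraries paired, which are unchanged by construction. The genotype difference in log2 density of chromosome 8 turned from -0.15 to 0.21 with equal list sizes, and to 0.0561 without TREM2-MKO replicate 3 (all replicates left out in turn: -0.29 to 0.0561). The gene-end enrichment of chromosome 2, 0.04 on the log2 scale, turned to -0.0445 without the same library, with a range of -0.0445 to 0.10. The step on chromosome 2, -0.50 in the mean profile, turned to 0.29 at 40 Mb with equal list sizes, to 0.24 at 85 Mb without TREM2-MKO replicate 3 (range -0.57 to 0.24), and to 0.23 at 80 Mb with the bins below the lowest one, an alternative added after seeing the data. The step on chromosome 8 ranged from -0.76, at 15 Mb without TREM2-MKO replicate 3, to -0.43. The causes were not tested.

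Counts moved most. Bins with LysM-Cre higher (2) became 5 with −log10 p of 5 or more, 5 with equal list sizes, 4 with the reference without chromosomes 2, 3 and 8, 14 in 2 Mb bins and 1 in 10 Mb bins, and with TREM2-MKO higher (0) they became 1, 3, 0, 4 and 0. Leaving out 1 library gave 2 to 13 and 0 to 8. Regions in 3 or more libraries (49) became 6, 7 and, merged up to 500 bp apart, 82, with 17 to 40 when a library was left out. Regions of LysM-Cre alone (10) became 2 with −log10 p of 5 or more and 2 with equal list sizes. Those of TREM2-MKO alone (3) likewise became 2 and 2 at these settings. With 1 library fewer, the LysM-Cre count ranged from 10 to 123 and the TREM2-MKO count from 3 to 56. Genes in 2 or more libraries (87) became 21 and 14 with stronger peaks, 244 with 2.5 kb windows, 950 over bodies and 44 near the start, with a range of 38 to 80. The 3 genes of LysM-Cre alone became 0 and 0 with stronger peaks, 12 with 2.5 kb windows and 27 over bodies, with 3 to 23 when a library was left out; the 0 genes of TREM2-MKO alone became 1 with 2.5 kb windows and 1 near the start, with 0 to 3. Fewer libraries make it easier to fill a genotype and harder to reach 3.

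Replicate numbers are shared by the genotypes, but same-numbered libraries deviated against each other (correlations of -0.26, -0.48 and -0.60 over 495 bins), so the numbers were not taken as pairs. With the replicate block, the density differences stay at -0.21 and -0.15 by construction, since a mean of paired differences equals the difference of means. The bins became 13 with LysM-Cre higher and 3 with TREM2-MKO higher. With 11 fragments at a typical summit, a position without a call is not shown to lack the mark.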
